A study of Homo sapiens with 6 samples.

Results

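The endosomal sorting genes described here are the ESCRT, retromer, HOPS and CORVET, GARP and EARP, and VPS13 genes together with the sorting nexins. They were chosen by symbol alone: CHMP, VPS and SNX genes with a number, plus HGS, STAM, STAM2, TSG101, PDCD6IP and IST1. This gave 80 of the 58395 genes counted: 26 ESCRT genes, 4 retromer genes, 7 HOPS and CORVET genes, 5 GARP and EARP genes, 4 VPS13 genes, 4 other VPS genes and 30 sorting nexins. RNA was sequenced from THP-1 cells, a suspension line from a human monocytic leukaemia, kept in RPMI medium with fetal bovine serum. The 3 untreated libraries came from cells labelled as having no exposure, with no vehicle named, and the 3 monensin libraries from cells given 1 µM monensin for 16 h. Monensin is an ionophore that exchanges sodium ions for protons across membranes. Nothing in the labels ties the libraries of a group to different cultures. The p-values therefore reflect only how these samples differ among themselves, and that spread may be technical.

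Membrane proteins marked with ubiquitin are gathered on endosomes by ESCRT-0, handed to ESCRT-I and ESCRT-II, and enclosed in internal vesicles by ESCRT-III filaments, which the VPS4 ATPases take apart. Retromer and many sorting nexins carry other cargo out of the endosome towards the trans-Golgi network or the cell surface. CORVET tethers early endosomes and HOPS tethers late endosomes and lysosomes before they fuse, and the GARP complex tethers vesicles that return to the Golgi. VPS13 proteins move lipids between membranes at contact sites.

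Gene counts came to between 22975888 and 25710513 per library. The members took 0.475% ± 0.0045 of gene counts without exposure and 0.507% ± 0.0077 with monensin (mean ± SD, n = 3). The monocytic genes CD33, LYZ and SPI1 were read at means of 134, 791 and 285 CPM without exposure and 101, 292 and 360 CPM with monensin. CPM here are counts scaled to the TMM-adjusted library size. CD14, another monocytic gene, was low, at 0.480 and 2.37 CPM. Of the genes listed for other lineages, 7 (CD3D, CD3E, MS4A1, EPCAM, KRT19, ALB and HBB) were too low to be tested. COL1A1 stood at 0.652 CPM without exposure and 1.16 CPM with monensin, and PECAM1 at 261 and 316 CPM. In bulk RNA, fewer cells with a transcript and less transcript per cell cannot be told apart.

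Of the 80 members, 77 had enough reads to be tested. CHMP4C, with counts of 0, 0 and 1 in untreated and 2, 1 and 2 in monensin libraries, and SNX31, with 0, 0 and 0 against 1, 1 and 0, were close to unread. SNX15 was also left out of the test, with counts of 8, 6 and 7 against 10, 10 and 14, and 39.41% of its exonic length lies under ARL2-SNX15, a gene on the same strand. Per kilobase of exon, SNX3, a nexin that works with retromer on Wntless, had the highest level at 142 ± 4.22 CPM in untreated and 148 ± 4.70 CPM in monensin libraries (SD, n = 3). The ESCRT-III gene CHMP4B followed at 62.7 ± 3.53 and 62.9 ± 2.67 CPM per kilobase. The lowest level among tested members was that of VPS37D, at 0.185 ± 0.0116 and 0.713 ± 0.0776 CPM per kilobase.

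By edgeR's quasi-likelihood test at an adjusted p under 0.05, 32 of the 77 tested members rose with monensin and 21 fell, while 24 did not pass. Over the whole transcriptome 67.8% of the 16542 genes tested were called, 34.1% raised and 33.7% lowered. The share of tested members called, 68.8%, was near that background; 41.6% rose and 27.3% fell. The members' median log2 fold change was 0.09, against 0.02 over all tested genes. Changes were small, with 47 of the 53 called members altered less than 1.5-fold. Only VPS13A, VPS37D and SNX21 were called with at least a 2-fold change, against 13.2% of all tested genes. These were also the members listed in the authors' deposited table of regulated genes, which gives log2 fold changes of -1.03, 1.92 and 1.16 for them. The groups did not overlap in 55 of the 77 members, against 71.1% of all tested genes.

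The direction of the calls depended on how libraries were scaled. Rises made up 60.4% of called members with TMM, 74.6% with total counts alone (44 raised and 15 lowered, against 39.8% and 27.8% of all tested genes) and 70.7% when trends with GC content and transcript length were removed within each library (41 raised and 17 lowered, against 35.2% and 32.8%). By DESeq2 they made up 55.3% (26 raised and 21 lowered, against 29.3% and 31.5% of all tested genes). Calls that the GC and length correction ended, and turns in sign where either fit made a call, are named with each family below. In all 15 members turned sign, of which HGS, VPS37B, VPS4A, VPS50, VPS52 and SNX7 were called in neither fit.

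**Figure D1:**
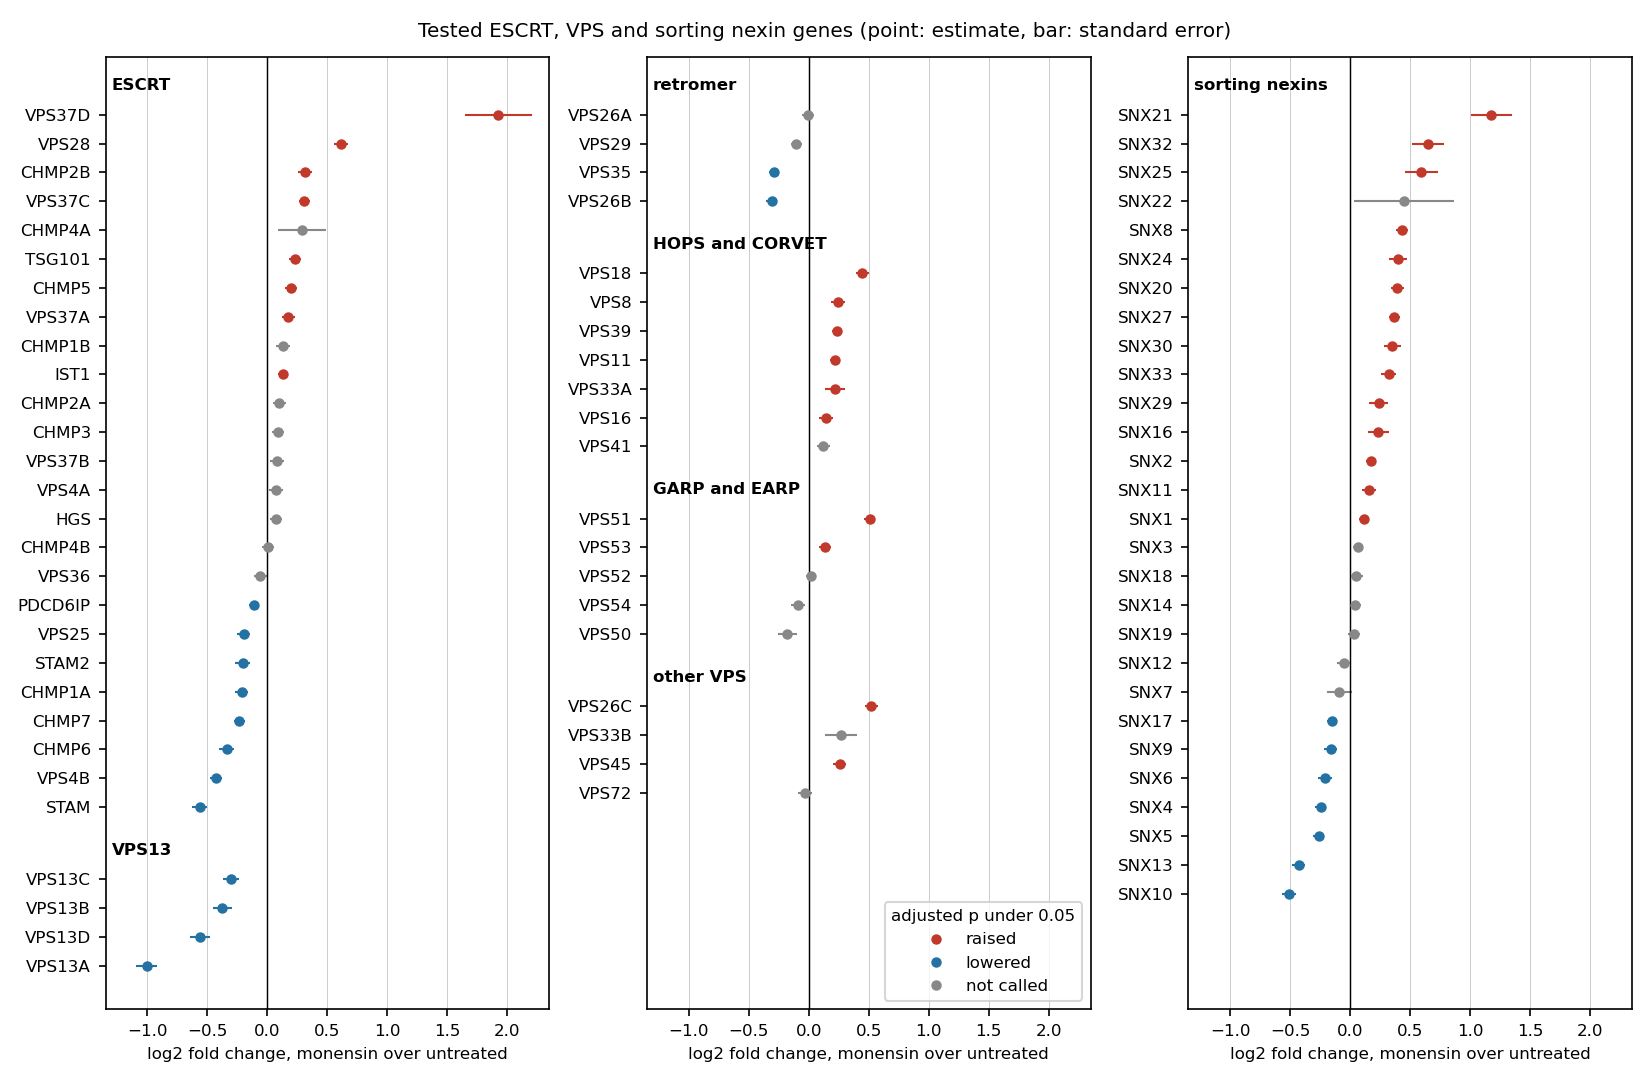
Log2 fold change of each tested member, monensin over untreated, with points for the estimate and bars for its standard error (n = 3 libraries a group). Red and blue mark genes raised and lowered at an adjusted p under 0.05, and grey those not called; HOPS and CORVET genes lie to the right of 0, VPS13 genes to the left, and ESCRT genes and sorting nexins on both sides.

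Within the ESCRT machinery 8 genes rose and 8 fell of the 25 tested, and the median log2 fold change was 0.08. The calls fell unevenly over its complexes, which were not tested against each other. ESCRT-I, which passes cargo from ESCRT-0 to ESCRT-II, had 5 of 6 genes raised and none lowered. ESCRT-0 had 2 of 3 lowered, and the VPS4 and ALIX group 2 of 3 lowered. With total counts alone, 14 ESCRT genes were raised and 5 lowered, and with GC and length trends removed 12 and 8.

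ESCRT-0 is made of HGS, which binds ubiquitin and the lipid PI3P, with STAM or STAM2. STAM (chromosome 10, 17644125 to 17715914, GRCh38) was read at 23.1, 24.6 and 24.7 CPM in untreated and 15.9, 16.9 and 16.2 CPM in monensin libraries. All monensin libraries lay below all untreated ones, for a log2 change of -0.56 (SE 0.06, adjusted p = 1.1e-06). STAM2 fell by 0.21 (SE 0.06, adjusted p = 0.0072), a call that ended with total counts alone (-0.12, adjusted p = 0.102) and, at 0.05 (adjusted p = 0.397), once GC and length trends were removed. HGS stood at 0.07 (SE 0.05, adjusted p = 0.2).

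Among ESCRT-I genes VPS28, the subunit that links to ESCRT-II, was read at 87.8, 82.8 and 83.4 CPM without exposure and 123, 123 and 143 CPM with monensin. Its groups were well apart, with the third monensin library highest, and it rose by 0.61 (SE 0.06, adjusted p = 1.64e-07). VPS28 lies on chromosome 8, 144423601 to 144428563. TSG101, which recognises ubiquitin, rose by 0.23 (SE 0.05, adjusted p = 0.000536). The VPS37 subunits are alternatives to one another in the complex. VPS37C rose by 0.31 (SE 0.05, adjusted p = 2.66e-05), and VPS37D, with counts of 8, 7 and 7 against 30, 32 and 24, by 1.93 (SE 0.28, adjusted p = 1.67e-05). VPS37A rose by 0.17 (SE 0.06, adjusted p = 0.0119), but the call ended without the first untreated library (0.14, adjusted p = 0.0648) or the second monensin library (0.12, adjusted p = 0.0986). VPS37B stood at 0.08 (adjusted p = 0.25), and 27.85% of its exonic length lies under another gene on the same strand.

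ESCRT-II was represented by VPS25, which fell by 0.20 (SE 0.05, adjusted p = 0.00385) but was not called with total counts alone (-0.11, adjusted p = 0.0669), and VPS36, at -0.06 (adjusted p = 0.36). With GC and length trends removed VPS36 was instead raised, at 0.21 (adjusted p = 0.000254).

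ESCRT-III genes encode the filament subunits, and 3 of the 11 tested rose while 3 fell. CHMP6, which starts filaments on ESCRT-II, was read at 25.42, 26.03 and 26.01 CPM in untreated and 19.9, 19.5 and 21.8 CPM in monensin libraries, without overlap. It fell by 0.34 (SE 0.06, adjusted p = 0.000191). CHMP7, a subunit used at the nuclear envelope, fell by 0.23 (SE 0.05, adjusted p = 0.000345) and CHMP1A by 0.22 (SE 0.05, adjusted p = 0.0016). CHMP2B rose by 0.31 (SE 0.06, adjusted p = 0.000242), from 27.6, 28.9 and 25.6 CPM to 34.5, 33.8 and 33.5 CPM. CHMP5 and IST1 also rose, by 0.20 and 0.13. The main filament subunit CHMP4B stood at 0.00 (SE 0.05, adjusted p = 0.964). With GC and length trends removed 5 ESCRT-III genes were raised and 5 lowered. The uncalled CHMP4B and CHMP2A were then lowered, at -0.20 (adjusted p = 0.000415) and -0.11 (adjusted p = 0.0261), and CHMP1B and CHMP3 raised, at 0.30 (adjusted p = 0.000163) and 0.26 (adjusted p = 3.47e-05). Leaving out the third untreated or the second monensin library raised CHMP1B past the threshold (0.16 in each, adjusted p = 0.0381 and 0.0495). CHMP4A is uncertain, with 68.79% of its exonic length under a gene on the same strand.

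VPS4B, an ATPase that recycles ESCRT-III (chromosome 18, 63389190 to 63422483), was read at 82.3, 84.3 and 84.3 CPM in untreated and 66.2, 61.4 and 58.9 CPM in monensin libraries. The groups did not overlap, and VPS4B fell by 0.43 (SE 0.05, adjusted p = 2.21e-06). Its paralog VPS4A stood at 0.07 (SE 0.06, adjusted p = 0.266). PDCD6IP, which encodes the adaptor ALIX, fell by 0.11 (SE 0.04, adjusted p = 0.0305). That call did not hold without the second or the third untreated library or the first or second monensin library (adjusted p 0.0995, 0.0716, 0.0599 and 0.0584). With GC and length trends removed PDCD6IP was raised, at 0.17 (adjusted p = 0.000232).

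Retromer, the trimer of VPS35, VPS29 and VPS26A or VPS26B, had 2 of 4 genes lowered and none raised; the median log2 fold change was -0.20. VPS35, the scaffold subunit (chromosome 16, 46656132 to 46689518), was read at 213, 224 and 213 CPM in untreated and 178, 180 and 175 CPM in monensin libraries. VPS26B, on chromosome 11 from 134224645 to 134247792, was read at 141, 141 and 143 against 115, 111 and 118 CPM. In both, every monensin library lay below every untreated one. VPS35 fell by 0.29 (SE 0.04, adjusted p = 1.3e-05) and VPS26B by 0.31 (SE 0.04, adjusted p = 8.96e-06). VPS29 stood at -0.11 (SE 0.05, adjusted p = 0.0555), which passed without the third untreated library (-0.14, adjusted p = 0.0301), and VPS26A stood at -0.01 (SE 0.05, adjusted p = 0.917). The retromer result depended on the GC and length correction: with it VPS26B remained lowered (-0.43, adjusted p = 7.25e-09), VPS35 was no longer called (-0.03, adjusted p = 0.493), and VPS26A and VPS29 were raised (0.19 and 0.10, adjusted p = 0.00106 and 0.0416).

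HOPS and CORVET share VPS11, VPS16, VPS18 and VPS33A; VPS39 and VPS41 belong to HOPS and VPS8 to CORVET. Of these 7 genes, 6 rose (85.7%, against 34.1% of all tested genes) and none fell. Their median log2 fold change was 0.22. TGFBRAP1, a CORVET subunit that the symbol rule leaves out, fell by 0.54 (SE 0.06, adjusted p = 8.06e-07). With GC and length trends removed TGFBRAP1 fell by 0.61 (adjusted p = 2.26e-08). VPS18, a core subunit on chromosome 15 from 40894430 to 40903975, was read at 45.7, 48.5 and 49.6 CPM in untreated and 65.4, 63.9 and 67.1 CPM in monensin libraries. It was the most changed of the 7, with no overlap and a rise of 0.45 (SE 0.05, adjusted p = 1.24e-06). VPS11 rose from 81.2, 79.1 and 79.1 to 92.2, 92.0 and 94.6 CPM (0.22, SE 0.04, adjusted p = 0.000366). VPS39, which binds RAB7 on late endosomes, rose from 80.7, 83.6 and 81.8 to 98.9, 94.5 and 96.2 CPM (0.24, SE 0.04, adjusted p = 0.000224). VPS8, the RAB5-binding CORVET subunit, rose from 25.5, 28.2 and 27.2 to 32.1, 32.6 and 31.0 CPM (0.24, SE 0.06, adjusted p = 0.0019). In VPS11, VPS39 and VPS8 the groups were likewise apart, at changes well under 1.5-fold.

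The other HOPS core genes were less secure. VPS33A, the SM protein that handles SNAREs, rose by 0.22 (SE 0.09, adjusted p = 0.0338) and VPS16 by 0.14 (SE 0.06, adjusted p = 0.0482). By DESeq2 neither was called (adjusted p 0.126 and 0.166). Same-strand genes cover 21.47% of the exonic length of VPS33A and 16.59% of that of VPS16. The VPS33A call ended without the first or second untreated library or the first or second monensin library (adjusted p 0.125, 0.125, 0.067 and 0.126). The VPS16 call ended without the first or the third untreated library or any one of the monensin libraries (adjusted p 0.146, 0.162, 0.073, 0.129 and 0.0883), and its estimate turned to -0.04 (adjusted p = 0.521) with GC and length trends removed. VPS41 was read at 66.7, 69.1 and 69.5 against 78.7, 76.7 and 67.9 CPM. The third monensin library fell among the untreated ones and it was not called (0.12, SE 0.06, adjusted p = 0.0686), but it passed without that library (0.18, adjusted p = 0.00325).

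**Figure D2:**
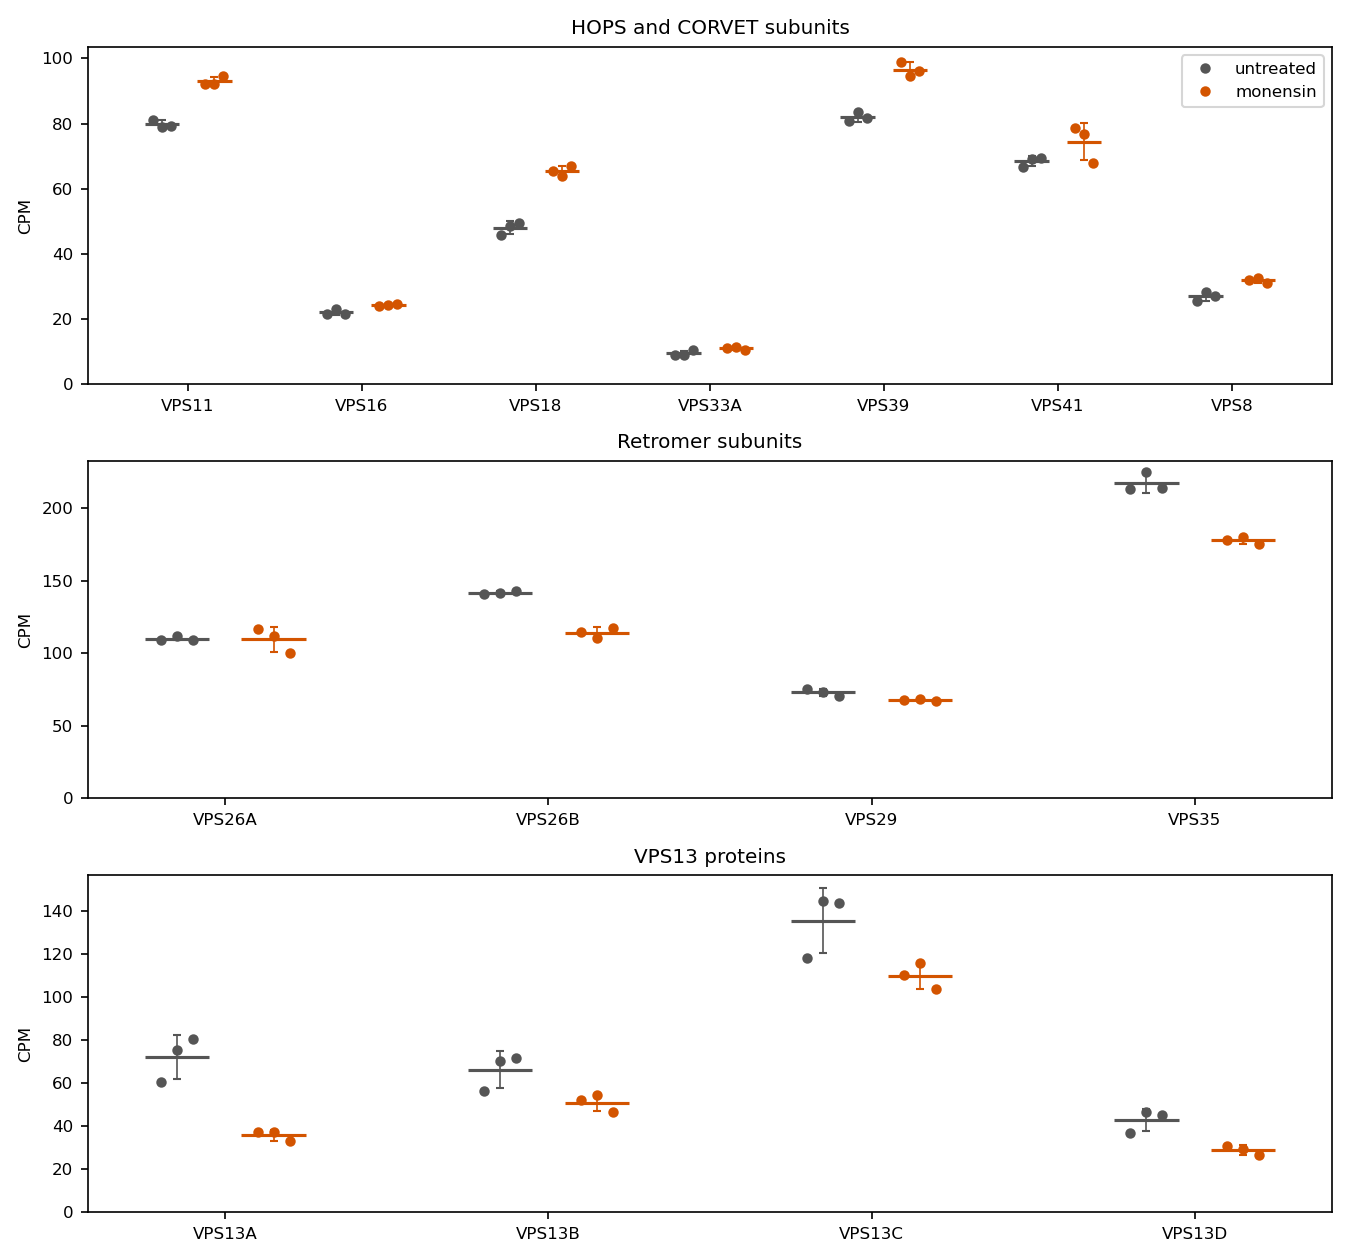
CPM of each HOPS and CORVET, retromer and VPS13 gene in every library (points), with the group mean (horizontal line) and SD (bar), n = 3. VPS18 stands at 63.9 to 67.1 CPM in monensin against 45.7 to 49.6 CPM in untreated libraries, and VPS35 at 175 to 180 against 213 to 224 CPM.

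Promoter windows of RefSeq genes, from 250 bases before to 50 after the start on GRCh38.p14, were found for 59 of the 80 members. They were searched on both strands for CACGTG, the E-box read by many basic helix-loop-helix factors, and for GTCACGTG, which contains it and is part of the CLEAR element that TFEB and TFE3 bind. CHMP4A, VPS37B and VPS50 also hold GTCACGTG but were not called, and are not printed. The sequences below are those of the called members with GTCACGTG. Each is written 5′ to 3′ on the gene's strand, with the match in capitals, read as GTCACGTG or as its complement CACGTGAC. The first 5 belong to genes that rose and the last to PDCD6IP, which fell.
VPS11, chr11:119067754-119067821, plus strand: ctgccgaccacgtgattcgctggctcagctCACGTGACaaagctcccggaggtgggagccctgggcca
VPS16, chr20:2840649-2840716, plus strand: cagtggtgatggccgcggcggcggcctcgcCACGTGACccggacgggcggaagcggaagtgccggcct
VPS8, chr3:184812151-184812195, plus strand: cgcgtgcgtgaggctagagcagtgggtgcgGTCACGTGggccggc
VPS26C, chr21:37267380-37267447, minus strand: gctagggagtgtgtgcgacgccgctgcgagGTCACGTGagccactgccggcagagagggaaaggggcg
SNX8, chr7:2314412-2314474, minus strand: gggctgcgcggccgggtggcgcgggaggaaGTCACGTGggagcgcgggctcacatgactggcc
PDCD6IP, chr3:33798495-33798562, plus strand: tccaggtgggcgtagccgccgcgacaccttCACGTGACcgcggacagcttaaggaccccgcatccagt

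CACGTG begins 34 bases before the start of transcription in VPS11, 66 in VPS16, 81 in VPS26C, 105 in PDCD6IP and 1 in SNX8, and in VPS8 at position 18, counting the start itself as 1. GTCACGTG was in 9 of 59 members (15.3%), against 5.17% of the 10555 tested genes in the table and 2.93% of all 27305 genes there. CACGTG was in 10 members (16.9%), against 12.6% of tested genes. By family, CACGTG was in 3 of 5 HOPS and CORVET genes, 4 of 19 ESCRT genes, 1 of 23 sorting nexins, and none of the 3 retromer or 3 VPS13 genes with a window. Of the 9 members with GTCACGTG, 5 rose, 1 fell and 3, CHMP4A, VPS37B and VPS50, were not called; of all 59 members with a window, 22 rose and 17 fell. Among these matches the calls of VPS16 and PDCD6IP depended on the processing, as given with their families. VPS39 and VPS41 held no CACGTG in their windows. VPS18 and VPS33A had no window and were not searched. TGATGNAA, the core of the element bound by ATF4 with C/EBP factors, was in 1 member, the lowered SNX10 (1.69%, against 2.65% of tested genes). A match describes letters only, and binding was not measured.

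In the GARP and EARP complexes, which share VPS51, VPS52 and VPS53, 2 of 5 genes rose and none fell. VPS51, on chromosome 11 from 65089324 to 65111860, was read at 78.4, 76.2 and 81.3 CPM in untreated and 110, 108 and 118 CPM in monensin libraries. Its groups were far apart, with a rise of 0.51 (SE 0.05, adjusted p = 1.91e-07). VPS53 rose by 0.14 (SE 0.05, adjusted p = 0.032), a call that ended when any 1 of the 6 libraries was left out (adjusted p 0.0733, 0.137 and 0.0602 without each untreated library in turn, and 0.0669, 0.0566 and 0.0719 without each monensin library). VPS54, found in GARP only, stood at -0.09 (adjusted p = 0.173), and was raised at 0.14 (adjusted p = 0.0102) with GC and length trends removed. VPS50, its counterpart in EARP, stood at -0.18 (adjusted p = 0.0593) and passed without the first untreated library (-0.24, adjusted p = 0.0221) or the first monensin library (-0.24, adjusted p = 0.0325). With GC and length trends removed its sign turned, to 0.10 (adjusted p = 0.165).

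All 4 VPS13 genes fell, where 33.7% of all tested genes were lowered, and their median log2 fold change was -0.47. VPS13A, which lies on chromosome 9 from 77177353 to 77421541, was read at 60.6, 75.6 and 80.4 CPM in untreated and 37.6, 37.2 and 33.0 CPM in monensin libraries. It was the most lowered of all members, at -1.01 (SE 0.09, adjusted p = 5.34e-08), and the groups did not overlap. VPS13D was read at 37.1, 46.6 and 45.1 against 30.9, 29.6 and 26.6 CPM (-0.56, SE 0.08, adjusted p = 1.59e-05). VPS13B fell by 0.38 (SE 0.08, adjusted p = 0.000756) and VPS13C by 0.30 (SE 0.07, adjusted p = 0.00104). The fall was steady when libraries were left out, but VPS13C was not called with GC and length trends removed (-0.01, adjusted p = 0.83), and VPS13A then stood at -0.72, VPS13D at -0.46 and VPS13B at -0.14.

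In the first untreated library the VPS13 genes were low, with a median log2 deviation from the group mean of -0.21 against 0.10 and 0.11 in the other untreated libraries. The median of the other 326 tested genes with at least 15 kb of exon deviated in the same order, by -0.07, 0.03 and 0.05. These long genes had a median log2 fold change of -0.14, with 77 raised and 161 lowered. Whether transcript length had a part in the VPS13 result was not tested beyond the correction above.

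The other VPS genes belong to other machines. VPS26C, a subunit of retriever, which recycles cargo with SNX17, was read at 38.9, 38.3 and 40.7 CPM in untreated and 58.2, 57.1 and 54.0 CPM in monensin libraries. Its groups were apart, with a rise of 0.52 (SE 0.05, adjusted p = 3.35e-07). VPS45, an SM protein of early endosomes, rose by 0.26 (SE 0.05, adjusted p = 0.0005). VPS33B, which pairs with VIPAS39, stood at 0.27 (SE 0.13, adjusted p = 0.0854) and passed without the first monensin library (0.40, adjusted p = 0.0155). VPS72, a subunit of chromatin remodellers and no sorting protein, stood at -0.03 (adjusted p = 0.632).

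Of 28 sorting nexins tested, 14 rose and 7 fell; the median log2 fold change was 0.14. Among the 12 that pair the PX domain with a membrane-bending BAR domain, 6 rose and 4 fell; 2 were lowered with total counts alone and 1 with GC and length trends removed. Among the 10 tested without a BAR, FERM or RGS domain, 6 rose and 1 fell, but 3 were raised by DESeq2, 3 without the first monensin library and 4 without the third untreated library. With total counts alone, 4 nexins were lowered in all.

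The nexins that carry cargo out of endosomes as dimers split in direction. SNX1 and SNX2 rose, by 0.12 (SE 0.04, adjusted p = 0.0235) and 0.17 (SE 0.04, adjusted p = 0.00115), while their partners SNX5 and SNX6 fell by 0.26 (SE 0.05, adjusted p = 0.000131) and 0.21 (SE 0.06, adjusted p = 0.00381). SNX5 was read at 114, 108 and 106 against 92.8, 87.9 and 92.7 CPM, and SNX2 at 156, 158 and 153 against 175, 176 and 175 CPM. With GC and length trends removed SNX5 and SNX6 stood at 0.00 and -0.01 (adjusted p = 0.978 and 0.828), while SNX1 and SNX2 remained raised at 0.28 and 0.36. SNX6 was not called with total counts alone either (-0.12, adjusted p = 0.0718). The SNX1 call also ended without the first or second library of either group (adjusted p 0.0568 and 0.143 for untreated, 0.0742 and 0.0781 for monensin). SNX32, a relative of SNX5 and SNX6, rose from 5.41, 7.25 and 5.02 to 9.89, 9.88 and 7.75 CPM (0.65, SE 0.13, adjusted p = 0.000487). SNX4, of the recycling nexins, fell by 0.25 (adjusted p = 0.000289), which ended at -0.06 (adjusted p = 0.185) under the same correction.

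SNX8 had counts of 1247, 1141 and 1206 in untreated and 1623, 1680 and 1596 in monensin libraries, without overlap. It rose by 0.43 (SE 0.05, adjusted p = 1.67e-06). SNX30 and SNX33 rose by 0.35 and 0.32, and SNX9, which works in endocytosis, fell by 0.16, though not with total counts alone (-0.08, adjusted p = 0.195). SNX27, whose PDZ domain hands cargo to retromer (chromosome 1, 151612006 to 151699091), was read at 64.6, 66.9 and 63.9 against 86.0, 84.1 and 81.7 CPM. It rose by 0.37 (SE 0.05, adjusted p = 4.16e-06), opposite to VPS35 and VPS26B. SNX17, the retriever adaptor, fell by 0.15 (SE 0.04, adjusted p = 0.00574), a call that ended with total counts alone (-0.07, adjusted p = 0.168).

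SNX10, known for its need in osteoclasts (chromosome 7, 26291895 to 26374329), was read at 30.4, 31.4 and 31.9 CPM in untreated and 22.2, 22.8 and 20.7 CPM in monensin libraries. The groups were apart and SNX10 fell by 0.51 (SE 0.06, adjusted p = 1.67e-06). SNX13, a PX-RGS nexin, fell by 0.43 (SE 0.05, adjusted p = 3.27e-06), and its relative SNX25 rose by 0.59 (SE 0.14, adjusted p = 0.00145). Both remained called with GC and length trends removed, at -0.15 and 0.80. SNX21 rose from 1.44, 2.19 and 1.82 to 3.86, 3.76 and 4.71 CPM (1.18, SE 0.17, adjusted p = 1.84e-05), and 36.62% of its exonic length faces a gene on the opposite strand. SNX20, which binds the selectin ligand PSGL-1, rose by 0.39 (adjusted p = 1.82e-05), with 49.77% of its exonic length facing a gene on the opposite strand, and SNX24 by 0.40 (adjusted p = 0.000244). The strand setting of the counts is not known, so whether and how reads of such partners affected these counts is not known either.

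SNX22 had 1 library apart from its group. Its counts were 91, 142 and 87 in untreated and 176, 245 and 27 in monensin libraries, so the third monensin library was below all others. It was not called (0.45, SE 0.42, adjusted p = 0.355), but rose by 0.92 (adjusted p = 0.000674) without that library. SNX11, SNX16 and SNX29 were called at 0.16, 0.24 and 0.24 (adjusted p = 0.0271, 0.0296 and 0.0143), but none by DESeq2 (adjusted p 0.0673, 0.111 and 0.0826). SNX11 was lost without the first untreated, the first monensin or the third monensin library (adjusted p 0.149, 0.0609 and 0.0748) and with GC and length trends removed (0.05, adjusted p = 0.402). SNX16 was lost without the third untreated or the first or second monensin library (0.15, 0.19 and 0.24, adjusted p 0.17, 0.12 and 0.0657). SNX29 was lost without the third untreated or the first monensin library (adjusted p 0.0695 and 0.0636).

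Several of these proteins occupy the same place in a complex. The balance between paralogs, or between subunits particular to related complexes, was measured within each library as the log2 ratio of counts, over 12 pairs. With 3 libraries against 3, the exact two-sided permutation test cannot give a p below 0.1. The ratio of VPS4B to VPS4A was 0.94, 1.07 and 1.14 in untreated and 0.65, 0.56 and 0.41 in monensin libraries, a difference of -0.51 (SE 0.09). VPS4B made up 65.7%, 67.7% and 68.7% of the pair's counts before and 61.2%, 59.6% and 57.0% after. The ratio of VPS26B to VPS26A moved by -0.30 (SE 0.08), with VPS26B at 56.3%, 55.9% and 56.7% of counts in untreated and 49.6%, 49.7% and 54.0% in monensin libraries.

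The ratio of STAM2 to STAM moved by 0.35 (SE 0.06) and that of CHMP1B to CHMP1A by 0.35 (SE 0.08). These 4 pairs were the ones without overlap between groups, each at the smallest p of 0.1 (exact permutation test, 0.3 adjusted over the 12 pairs), so none passed. VPS39 of HOPS and VPS8 of CORVET kept nearly the same ratio, with a difference of 0.01 (SE 0.04), while both rose. They are not alternatives for the same place, and the ratio of VPS39 to the lowered CORVET subunit TGFBRAP1 was not measured. SNX2 to SNX1 moved by 0.06 (SE 0.03), SNX6 to SNX5 by 0.05 (SE 0.09), VPS33B to VPS33A by 0.05 (SE 0.18), VPS50 to VPS54 by -0.09 (SE 0.06) and VPS37B to VPS37A by -0.10 (SE 0.08). CHMP2B to CHMP2A moved by 0.21 (SE 0.09) and CHMP4B to CHMP4A by -0.33 (SE 0.27), with the groups overlapping. VPS4A, VPS33A and VPS33B carry 21.01%, 21.47% and 52.12% of their exonic length under same-strand genes, so their ratios are uncertain.

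**Figure D3:**
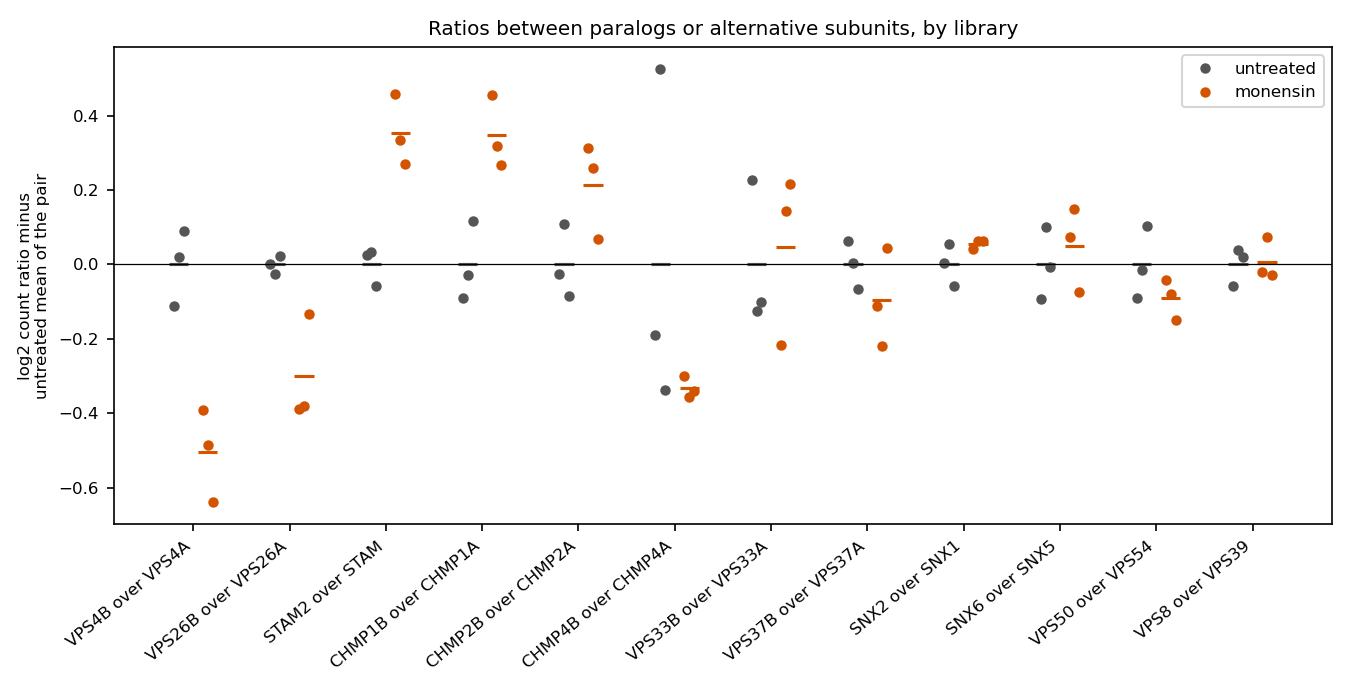
Log2 ratio of counts in each library for 12 pairs of paralogs or of subunits particular to related complexes. The mean of the untreated libraries of each pair is set to 0. Short lines are group means of 3 libraries; VPS4B over VPS4A and VPS26B over VPS26A lie lower in monensin, and STAM2 over STAM and CHMP1B over CHMP1A higher, without overlap.

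GC content of the transcript moved with these changes. Across the 77 tested members, the log2 fold change and GC content had Pearson's r of 0.463 and Spearman's rho of 0.39, and across 16523 tested genes with annotation 0.217 and 0.261. These are correlations across genes of the same 6 libraries, and genes are not independent replicates. Of 35 members under 45% GC, 11 rose and 13 fell, and their median was -0.06. Of 18 members at 55% or more, 10 rose and 4 fell, with a median of 0.31. Over all tested genes, 1393 of 6123 under 45% GC rose and 2816 fell, with a median of -0.16. At 55% or more, 2233 of 4701 rose and 974 fell, with a median of 0.22. HOPS and CORVET still had 6 of 7 genes raised with GC and length trends removed, where VPS41 (0.38, adjusted p = 5.54e-07) took the place of VPS16. Retromer then had 2 genes raised and 1 lowered.

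**Figure D4:**
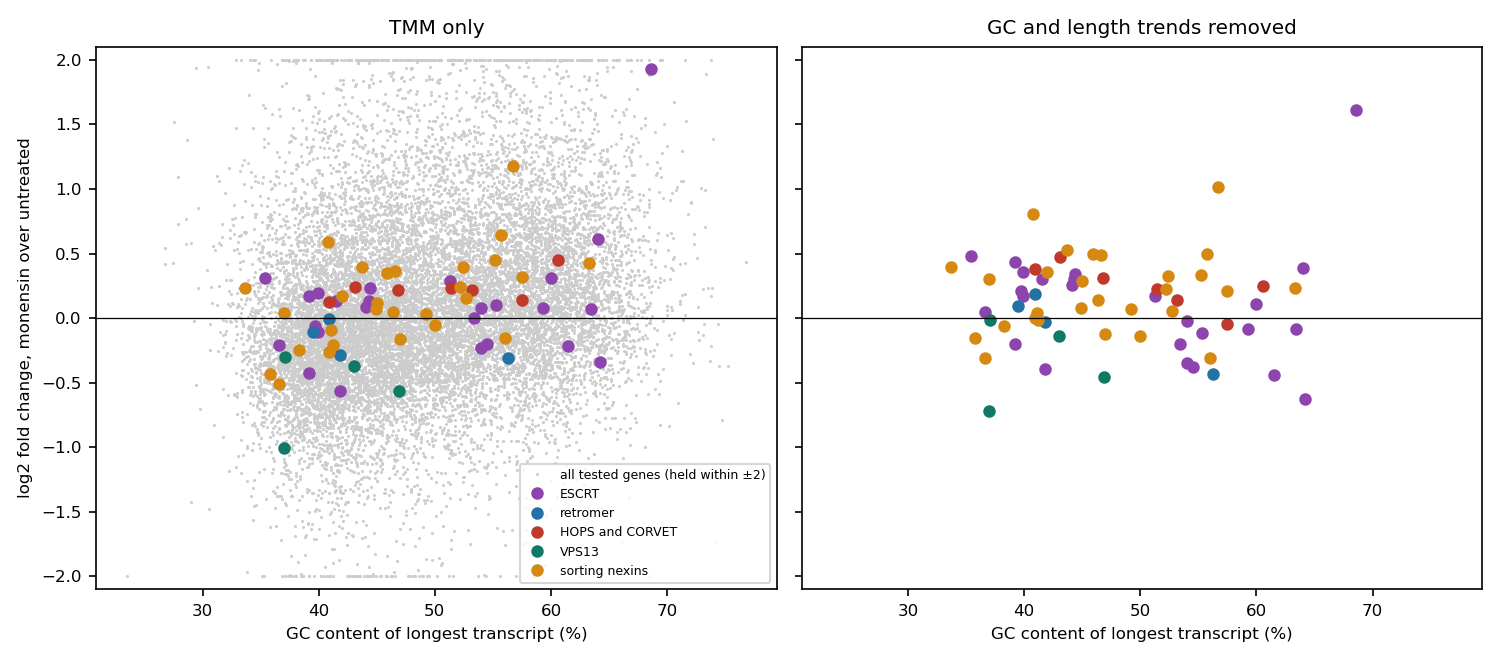
Log2 fold change against GC content (%) of the longest transcript, with TMM alone (left) and with GC and length trends removed (right). ESCRT, retromer, HOPS and CORVET, VPS13 and sorting nexin genes are coloured. All tested genes (grey, held within ±2) are shown on the left only. On the left the coloured points rise with GC content; on the right VPS13A, at -0.72, and VPS26B, at -0.43, remain below 0.

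The partners of these complexes that the symbol rule leaves out were read from 5 lists of 73 genes, of which 71 were tested. Of these, 35 rose and 18 fell (49.3% and 25.4%, against 34.1% and 33.7% of all tested genes). Tethering partners had 11 of 18 raised and 4 lowered. Among them the early endosome tether EEA1 fell from a mean of 45.9 to 28.1 CPM (-0.70, SE 0.07, adjusted p = 2.08e-07). ESCRT partners had 7 of 14 raised and 2 lowered, or 4 lowered with GC and length trends removed. TOM1, a ubiquitin-binding cargo adaptor, rose from 12.6 ± 0.530 to 50.5 ± 2.09 CPM (SD, n = 3), a log2 difference of 2.00 (SE 0.06, adjusted p = 5.33e-13) that exceeds the size of change of every tested member. VTA1, the VPS4 activator, fell by 0.55 (SE 0.05, adjusted p = 9.99e-08), the same direction as VPS4B.

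Of the WASH and Commander genes, which act with retromer and retriever, 9 of 20 rose and 7 fell; 3 were lowered with total counts alone and 4 with GC and length trends removed. WASHC2C, whose counts may be shared with its near-identical copy WASHC2A, rose by 0.72 (SE 0.08) and COMMD6 by 0.66 (SE 0.07). Enzymes of PI3P, the lipid bound by PX domains, had 2 of 9 raised and 5 lowered. FIG4, a phosphatase of the PIKfyve complex, rose by 0.93 (SE 0.06, adjusted p = 1.41e-09), and MTM1, a PI3P phosphatase, fell by 0.85 (SE 0.06, adjusted p = 5.21e-09). Cargo receptors and GGA adaptors had 6 of 10 raised and none lowered, among them LRP1, at 1.23 (SE 0.08, adjusted p = 3.43e-09), and the retromer cargo SORT1, at 0.61 (SE 0.10, adjusted p = 4.88e-05).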

How the data were processed

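RNA of 6 THP-1 libraries was sequenced as single reads of 75 nt from a directional kit, per the labels' protocols. The authors deposited raw counts per Ensembl gene; the submitters' processing notes name Trimmomatic 038, HISAT2 2.1.0, HTSeq 0.11.1, DESeq2 1.22.2 and GRCh38. For the strand setting and the annotation release, the sources used here give nothing. The authors' deposited log2 fold changes of regulated genes carry no errors. The 5 tally lines of each file (19.3% ± 0.388 of tallied alignments in untreated and 21.6% ± 0.398 in monensin libraries) were left out.

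The main test was edgeR 4.0.16 under R 4.3.3 (filterByExpr by group, TMM, quasi-likelihood F test, treatment only), with Benjamini-Hochberg adjustment over 16542 genes and a threshold of 0.05. Gene positions, exonic lengths and GC content came from GENCODE 29 (GRCh38). For the GC and length correction, natural splines with 5 degrees of freedom were fitted in each library and used as offsets. Pair ratios used counts with 0.5 added. The test was tried on simulated counts. The members, lists, pairs and motifs were chosen with earlier results of these data known. Genes were named by rule: up to 3 called genes per complex or family, and up to 2 per partner list, those with the largest change among genes averaging 2 or more in log2 CPM; every retromer, HOPS and CORVET gene; both genes of each pair; and untested members. Other genes with values were named after these were seen. Some genes that the rule or lists take are not reported here. Alternatives were total counts alone, RLE size factors, a filter of 1 CPM in 3 libraries with 50 counts in all, no filter, a replicate block, DESeq2 1.42.0, each library left out, a threshold of 0.01, the GC and length correction, and 1 added to counts in pairs.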

Additional observations from a re-analysis of the deposited data

How the results depend on the processing

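Of the 53 called members, 34 were called in the same direction under all 14 alternatives run. With GC and length trends removed, 15 of 77 members turned sign, 6 of them called in neither fit; the other 9 were STAM2 (0.048), VPS36 (0.21), CHMP2A (-0.11), CHMP4B (-0.20), PDCD6IP (0.17), VPS26A (0.19), VPS29 (0.10), VPS16 (-0.044) and VPS54 (0.14). Retromer then had 2 genes raised and 1 lowered, and the median over members was 0.14. With total counts alone, 14 ESCRT genes were raised and 5 lowered, 4 nexins were lowered and the median was 0.17; with the stricter filter it was 0.11. GARP and EARP had 1 gene raised with no filter, by DESeq2, at the threshold of 0.01 and without any 1 library, and 1 lowered with RLE size factors or no filter. Without 1 library, 26 to 31 members were raised and 20 to 22 lowered, HOPS and CORVET had 4 to 6 raised, GARP and EARP 0 to 1 lowered, and the median ran from 0.08 to 0.10. With the replicate number as a block, GARP and EARP had 1 gene raised, and 29 members were raised and 20 lowered: the calls of PDCD6IP, VPS16, VPS53 and SNX1 were lost and 0 gained. In their deviations from the group mean, same-numbered libraries correlated at -0.312, 0.219 and -0.06 over 11482 genes. Not every library correlated best with its own number. With 3 libraries a group such deviations depend on each other, so they cannot settle whether the numbers pair the samples. Depth limits VPS37D, read at 7 to 32 counts per library, and leaves CHMP4C, SNX15 and SNX31 without a test.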
